A study of Mus musculus with 6 samples.

Results

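The genes of the Tsc and mTOR pathway described here are Tsc1, Tsc2, Rheb, Mtor, Rptor, Rictor, Deptor, Akt1s1 and Rps6kb1. Their members in the data are accessible regions: every distinct region of the count table whose midpoint lay in the body of one of the 9 genes or within 10 kb of it, in mm10 coordinates. The rule gave 16 of the 43523 regions, and each of the 9 genes had at least 1. Accessibility had been measured by ATAC-seq, in which the transposase Tn5 cuts and tags open DNA, so that a count reflects how open a region was in the cells of a library. The cells were CD1 mouse nephron progenitors, the self-renewing mesenchyme that forms the epithelium of the nephron, taken at E14.5 (3 libraries) or on the day of birth, P0 (3 libraries). Each library came from the pooled kidneys of 1 litter, no genetic change or treatment is named in the labels, and the cells of both stages had been enriched through the surface integrin Itga8 with antibody-coated magnetic beads. The libraries are bulk samples, so a change between the stages can be one in the share of cells with an open region or in how open it was per cell, and these cannot be told apart.

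The pathway couples growth signals and nutrients to cell growth. Tsc1 and Tsc2 form a complex that switches off the small GTPase Rheb, and active Rheb stimulates the kinase mTOR when it is held in mTORC1 by the scaffold Raptor (Rptor). A separate complex, mTORC2, is built on Rictor. Deptor and Pras40 (Akt1s1) restrain mTOR, and S6 kinase (Rps6kb1) is a main mTORC1 target. In the mouse kidney, loss of 1 copy of Tsc1 from nephron progenitors has been reported to raise the number of nephrons.

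Of the 16 regions, 11 were promoters by the annotation of the table and 5 were not. The promoters comprised the promoter of each of the 9 genes and 2 regions that lay in a window but were listed as the promoter of a neighbour. One of these had its midpoint 4.02 kb before the start of Mtor, and the other lay within Akt1s1 near its 3′ end. Each of the 11 also overlapped an exon. The promoter regions of Tsc2 and Rps6kb1 each covered the start of a second gene on the opposite strand: Nthl1, 55 bases from the RefSeq start of Tsc2, and Tubd1, 184 bases from that of Rps6kb1. The table listed those regions under Nthl1 and Tubd1, so counts there belong to both genes of a pair. The remaining 5 regions were 1 within Rptor and 1 within Deptor, both outside exons, 1 over an internal exon of Rictor, and 2 in the 10 kb past the end of Deptor.

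The sequences before the start sites are shown for the kinase, the scaffolds of its complexes, its activator and its target. Each of these sequences was spanned by an accessible region with counts in every library. They were taken from RefSeq (GRCm38.p6), written 5′ to 3′ in the direction of the gene and end at the base before its outermost start. The Rps6kb1 stretch is the gap between that gene and Tubd1. Capitals mark the letters of 6 motifs searched on both strands: CACGTG (the E-box), CCGGAAG (of ETS factors), CCAAT (of NF-Y), GGGCGG (of Sp and Klf factors), AAGATGGC (of YY1) and the palindromic NRF1 motif.
Mtor (chr4:148448332-148448581, + strand): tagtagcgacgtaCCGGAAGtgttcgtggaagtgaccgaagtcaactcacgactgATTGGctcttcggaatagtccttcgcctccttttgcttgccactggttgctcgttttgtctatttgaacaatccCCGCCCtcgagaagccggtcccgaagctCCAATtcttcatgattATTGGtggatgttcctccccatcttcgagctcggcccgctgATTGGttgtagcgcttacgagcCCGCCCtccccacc
Rptor (chr11:119602655-119602904, + strand): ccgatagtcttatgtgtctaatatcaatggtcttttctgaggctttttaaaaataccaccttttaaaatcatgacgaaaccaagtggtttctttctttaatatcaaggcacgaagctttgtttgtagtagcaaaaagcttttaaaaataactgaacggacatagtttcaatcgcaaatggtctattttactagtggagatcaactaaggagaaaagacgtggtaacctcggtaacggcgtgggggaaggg
Rictor (chr15:6708131-6708348, + strand): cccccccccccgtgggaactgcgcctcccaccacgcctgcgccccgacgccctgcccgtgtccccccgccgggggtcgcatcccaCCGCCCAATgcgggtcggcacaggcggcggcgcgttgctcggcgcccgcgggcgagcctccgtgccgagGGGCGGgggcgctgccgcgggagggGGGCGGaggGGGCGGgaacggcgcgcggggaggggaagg
Rheb (chr5:24842362-24842611, - strand): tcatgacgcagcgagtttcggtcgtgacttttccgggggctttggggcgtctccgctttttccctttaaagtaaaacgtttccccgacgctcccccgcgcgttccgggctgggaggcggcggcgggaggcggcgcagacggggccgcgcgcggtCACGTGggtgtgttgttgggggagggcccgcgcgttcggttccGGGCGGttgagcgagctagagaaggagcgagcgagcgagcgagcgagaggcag
Rps6kb1 (chr11:86544886-86544990, - strand): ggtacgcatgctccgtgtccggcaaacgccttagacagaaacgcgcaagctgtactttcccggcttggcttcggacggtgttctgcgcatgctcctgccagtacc

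Windows from 250 bases before to 50 after the start were found for 8 of the 9 genes, Deptor being the other. GGGCGG was present in 4 of the 8 (Rheb, Mtor, Rictor and Akt1s1), against 35.7% of all 32851 promoter windows in the RefSeq table. CCAAT was present in Mtor and Rictor, against 37.4% of all windows. Mtor held 4 copies, and the copy in Rictor shared letters with a GGGCGG on the other strand. CCGGAAG was present in Tsc2, Mtor and Akt1s1 (8.86% of all windows), CACGTG in Rheb alone (7.15%) and AAGATGGC in Tsc1 alone (2.75%). The NRF1 motif was in none of the 8 and in 0.97% of all windows. GC content ran from 41.7% in Rptor, whose printed stretch holds none of the 6 motifs, to 78.3% in Rictor, with a median of 52.7% over all windows. These matches describe letters and say nothing about binding.

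The table also listed motif matches by factor name for each region. E2f factors were listed at the Mtor, Deptor and Rps6kb1 promoters, 3 of 9, against 33.6% of all promoter regions, and Maz at 4 of 9 against 38.1%. Forkhead factors were listed at 5 of 9, against 15.3%. At Mtor, the listed E2f1, E2f4, E2f7 and Maz matches all lay over a single CCGCCC, 121 to 116 bases before the start, so they are 1 stretch of DNA. The forkhead match at Mtor was to Foxi1 and lay over ATTGG, the reverse complement of CCAAT, 36 to 32 bases before the start. The promoters of Rictor and Akt1s1 had no listed match.

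The libraries held 6492996 to 12292629 counts in regions, the fewest in P0 replicate 2, and the 11 promoter regions had 64 to 906 counts per library against 9 to 243 at the other 5. Promoters took 53.39% of the counts in P0 replicate 2, the lowest of the 6 libraries, and 56.13% to 62.21% in the rest. A single region took 5.95% to 11.82% of each library. Libraries were scaled by TMM, a trimmed mean over regions. Of the 10 progenitor marker genes, 8 had a region (Meox1 and Pax2 had none), and the summed CPM (counts scaled to library size) of their regions were 385 to 388 at E14.5 and 334 to 411 at P0. Regions were also found at 9 of 10 stromal, 7 of 10 endothelial, 6 of 10 ureteric bud, 6 of 10 immune and blood and 7 of 10 differentiating nephron genes. Their summed CPM overlapped between the stages in each list (stroma 276 to 313 and 274 to 333, endothelium 243 to 281 and 239 to 253, ureteric bud 220 to 243 and 209 to 225, immune and blood 152 to 181 and 133 to 168, differentiating nephron 479 to 555 and 467 to 566, at E14.5 and P0). Single regions that passed the stage test were 2 of 20 at progenitor genes, 1 of 12 at endothelial genes, 1 of 20 at differentiating nephron genes and 0 in the other lists (16 stromal, 11 ureteric bud and 10 immune and blood regions). Among all 43523 regions, 4.73% passed that test, with 0.851% of promoter regions and 6.59% of other regions. The counts by list were not split into these classes. The part of other cell types in the values below was not tested.

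All 9 genes had a promoter among the accessible regions, with counts in every library of both stages. None of the 16 regions passed the test for a stage difference. With edgeR's quasi-likelihood test over all 43523 regions, 4.73% of regions passed a Benjamini-Hochberg adjusted p of 0.05. The member counts were 0 of 11 promoters, against 0.851% of all promoter regions, and 0 of 5 other regions, against 6.59% of all other regions. At an unadjusted p under 0.05 there were 0 of the 11 promoters (8.73% of all promoters) and 2 of the 5 other regions (23.5% of all others), both at Deptor. DESeq2 called 0 of the 11 (1.57% of all promoters) and 0 of the 5 (8.69% of all others), and limma-voom also called 0 of the 11 (0.745%) and 0 of the 5 (6.13%). The stages did not overlap at 0 of the 11 promoters (16.7% of all promoters) and at 2 of the 5 other regions (27.8% of all others). The p-values measure the spread between litters of 1 stage. For all 11 promoters the 95% interval of the log2 fold change lay within a 2-fold change in either direction, as it did for 91.8% of all promoter regions. It did so at 3 of the 5 other regions and at 62.6% of all other regions.

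**Figure D1:**
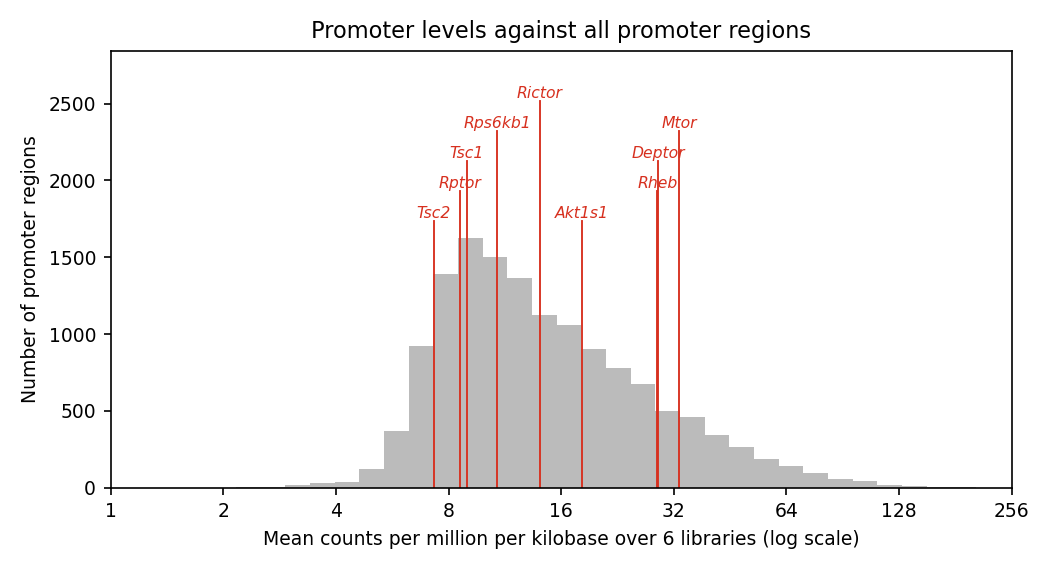
Mean CPM per kilobase of region over the 6 libraries (x axis, log scale) for all promoter regions (grey bars, number of regions) with the 9 promoters marked in red. Mtor, Deptor and Rheb lie in the upper part of the distribution and Tsc2 near its lower end.

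Promoter levels spread widely among the genes. Per kilobase of region, the level averaged over the 6 libraries was highest at Mtor with 33.0 ± 6.75 CPM per kb (SD, n = 6 libraries of both stages), followed by Deptor with 29.1 ± 5.26 and Rheb with 28.9 ± 4.88. These put the 3 promoters at the 88.1, 85.1 and 84.9 percentiles of all promoter regions, whose median was 12.8 CPM per kb. Levels per kilobase depend on the length of a region, and that of Mtor was the shortest of the set (1154 bases). In CPM, Mtor was below Deptor, Rheb and Akt1s1 in the mean of each stage. Akt1s1 had 18.2 ± 4.20 CPM per kb, Rictor 14.0 ± 2.15 and Rps6kb1 10.8 ± 2.04. The lowest levels were those of Tsc1 with 8.94 ± 0.824 CPM per kb, Rptor with 8.57 ± 1.85 and Tsc2 with 7.31 ± 1.10, at the 24.8, 21.6 and 11.0 percentiles. Neighbours in this order were often not separated. Mtor was above Deptor at E14.5 (35.9 against 26.0 CPM per kb, in 2 of 3 libraries) and below it at P0 (30.2 against 32.3, in 3 of 3 libraries), so the order of their means was not the same at both stages, a difference that was not tested. Deptor exceeded Rheb in 3 of 6 libraries and Tsc1 exceeded Rptor in 3 of 6. Rheb exceeded Akt1s1, and Akt1s1 exceeded Rictor, in 6 of 6 libraries.

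**Figure D2:**
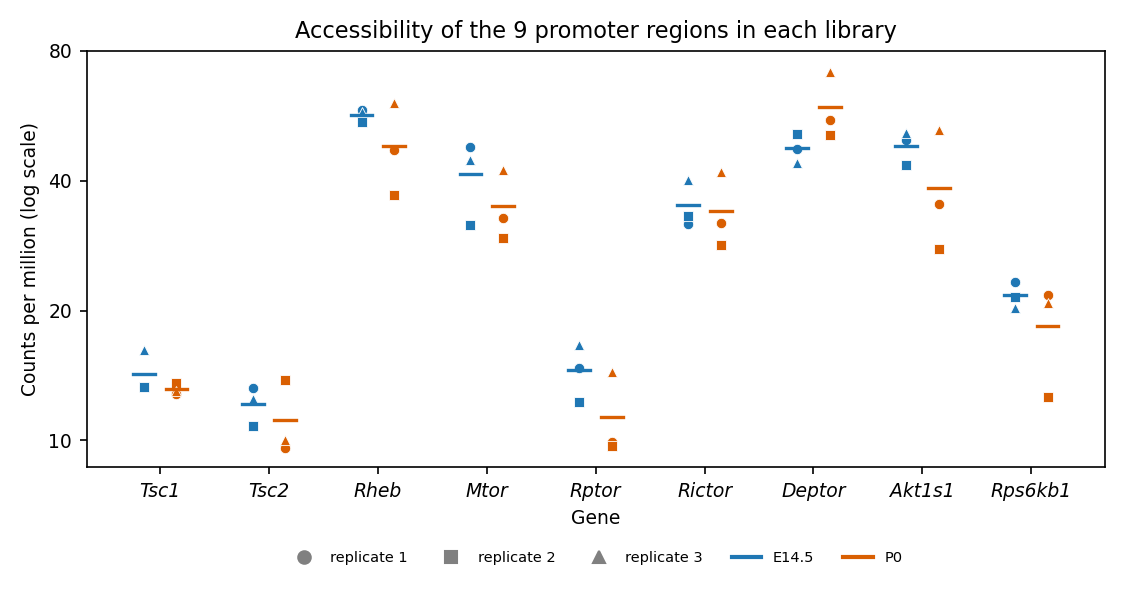
CPM (y axis, log scale) in each library at the promoter region of each of the 9 genes, with E14.5 in blue, P0 in orange, 1 symbol per replicate and a line at the mean of 3 libraries. The stages overlap at every gene, and P0 replicate 2 (orange square) is the lowest library at 6 of the 9.

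Neither gene of the Tsc complex passed the test at its promoter. At the promoter of Tsc1, which encodes hamartin (chr2:28640561-28642094), the E14.5 libraries had 13.3, 13.3 and 16.2 CPM and the P0 libraries 12.8, 13.6 and 13.0 CPM, in the order of replicates 1, 2 and 3. The P0 values lay close to the lower E14.5 values, and the log2 fold change was -0.12 (SE 0.21, 95% interval -0.57 to 0.33, adjusted p = 0.823). At the shared promoter of Tsc2, which encodes tuberin, and Nthl1 (chr17:24631939-24633530) the values were 13.2, 10.8 and 12.5 CPM at E14.5 and 9.58, 13.8 and 10.0 CPM at P0. Here P0 replicate 2 was the highest library of all 6, and the log2 fold change was -0.13 (SE 0.24, interval -0.64 to 0.37, adjusted p = 0.821).

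Rheb, the GTPase that the Tsc complex turns off, had one of the most open promoters of the set (chr5:24841670-24843488). Its E14.5 libraries were tight, at 58.4, 54.7 and 57.6 CPM, while the P0 libraries spread over 47.2, 37.1 and 60.4 CPM. Replicate 3 of P0 was above all E14.5 libraries and the other P0 libraries were below them. The log2 fold change was -0.23 (SE 0.21, interval -0.68 to 0.21, adjusted p = 0.607).

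Among the kinase and its scaffolds, the Mtor promoter (chr4:148448172-148449325) had 47.8, 31.6 and 44.7 CPM at E14.5 and 32.8, 29.4 and 42.4 CPM at P0. The stages overlapped, since E14.5 replicate 2 was lower than P0 replicates 1 and 3, and the log2 fold change was -0.24 (SE 0.22, interval -0.70 to 0.22, adjusted p = 0.610). Rptor, the scaffold of mTORC1, had 14.7, 12.3 and 16.6 CPM at E14.5 and 9.89, 9.69 and 14.4 CPM at P0 at its promoter (chr11:119602383-119603893). This was the lowest log2 fold change among the 11 promoters, at -0.35 (SE 0.24, interval -0.85 to 0.16, adjusted p = 0.481), with P0 replicate 3 inside the E14.5 range. At its promoter, Rictor, the scaffold of mTORC2, had 31.8, 33.2 and 40.2 CPM at E14.5 and 31.9, 28.3 and 41.9 CPM at P0 (chr15:6707369-6709840). Its estimated difference was the smallest of the 11 promoters in size (log2 fold change -0.04, SE 0.20, interval -0.47 to 0.40, adjusted p = 0.949), and its sign turned under total-count scaling, to 0.02.

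Estimates for the genes that restrain mTOR had opposite signs, neither past the test. The Akt1s1 promoter (chr7:44848289-44850665), which also overlaps Tbc1d17 and Mir707, had 49.6, 43.5 and 51.6 CPM at E14.5 and 35.4, 27.7 and 52.4 CPM at P0. P0 replicate 3 was again the highest library and replicate 2 the lowest, and the log2 fold change was -0.32 (SE 0.23, interval -0.81 to 0.17, adjusted p = 0.505). It was -0.13 without P0 replicate 2 and -0.62 without P0 replicate 3. Deptor was the only one of the 9 genes whose own promoter had a log2 fold change above 0 (chr15:55111912-55113744), and Rictor was above 0 as well under total-count scaling, under scaling on promoters alone and without P0 replicate 2 or E14.5 replicate 3. Its values were 47.4, 51.2 and 44.0 CPM at E14.5 and 55.3, 51.0 and 71.5 CPM at P0, so that P0 replicate 2 lay just under the highest E14.5 library. The log2 fold change was 0.32 (SE 0.20, interval -0.11 to 0.75, adjusted p = 0.429). The region also overlaps the long noncoding RNA gene Gm9920.

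The promoter that Rps6kb1 shares with Tubd1 (chr11:86543879-86545731) had 23.3, 21.5 and 20.3 CPM at E14.5 and 21.7, 12.6 and 20.8 CPM at P0. Only P0 replicate 2 left the E14.5 range, and the log2 fold change was -0.23 (SE 0.22, interval -0.70 to 0.24, adjusted p = 0.631). Without P0 replicate 2 it was -0.03. The region before Mtor had 11.6, 9.37 and 13.1 CPM at E14.5 and 8.12, 11.0 and 10.5 CPM at P0, with overlapping stages (log2 fold change -0.20, adjusted p = 0.726). It was -0.09 without E14.5 replicate 3 or P0 replicate 1 and -0.34 without E14.5 replicate 2. The region near the 3′ end of Akt1s1 had 15.2, 14.1 and 18.3 CPM at E14.5 and 17.1, 16.0 and 15.9 CPM at P0. All P0 values lay inside the E14.5 range there (log2 fold change 0.05, adjusted p = 0.939).

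**Figure D3:**
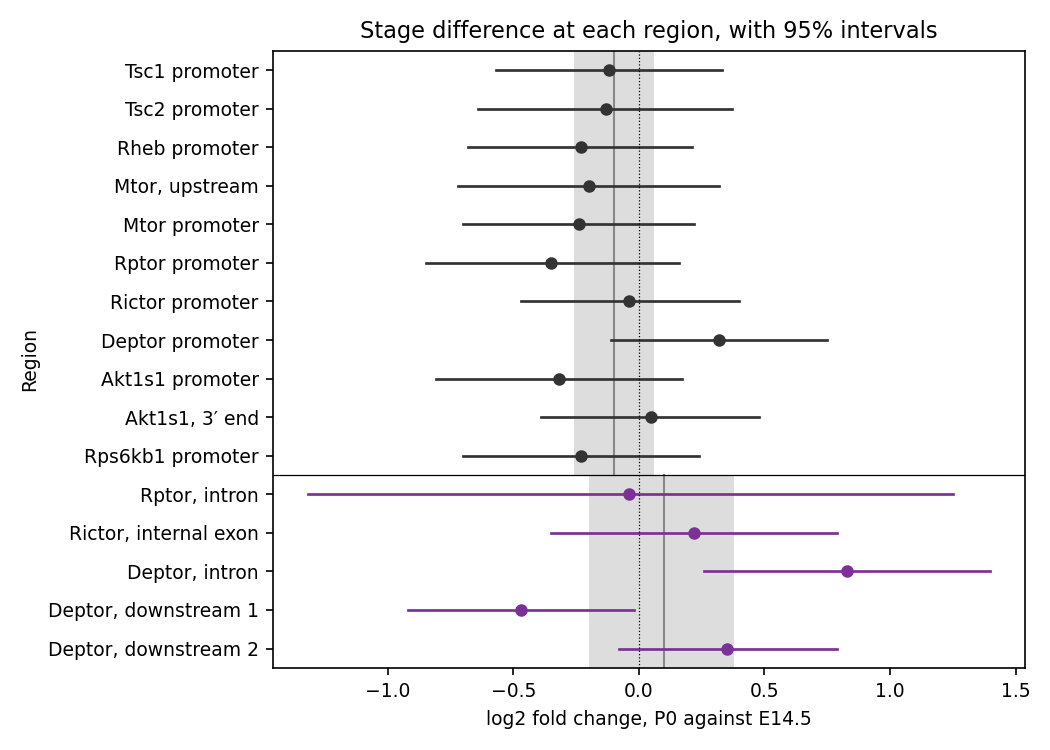
Log2 fold change of P0 against E14.5 (x axis) at each of the 16 regions (y axis), with the 95% interval of the edgeR fit; promoters are dark and other regions purple. Grey bands and lines show the interquartile range and median of all promoter regions (upper part) and all other regions (lower part). All promoter intervals cover 0, and those of the Deptor intron and the first downstream region do not.

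Of the 9 promoters of the genes themselves, 8 had log2 fold changes below 0 (7 under total-count scaling and without E14.5 replicate 3 or P0 replicate 2), with a median of -0.23 over the 9. Over all 14097 promoter regions 66.0% were below 0 and the median was -0.10, with an interquartile range of -0.26 to 0.06. P0 replicate 2 was the lowest library at 6 of the 9 promoters and at 49.4% of all promoter regions. Without that library the median of the 9 was -0.13 and that of all promoters -0.03, and the Rheb and Mtor estimates were -0.08 and -0.13. Without P0 replicate 3 the median of the 9 was -0.34 and that of all promoters -0.21. The Rheb and Mtor estimates were then -0.45 and -0.42, that of Rptor was -0.58 and that of Deptor 0.14. Without E14.5 replicate 3 the Tsc1 estimate was -0.02, and without P0 replicate 2 the Tsc2 estimate was -0.31 and without P0 replicate 1 it was -0.06. When the scaling factors were computed on promoter regions alone, a setting added after the values were seen, the median of all promoters was 0.00 and that of the 9 was -0.14, with 7 of them below 0. The spread between replicates was larger at P0, with a median coefficient of variation of 20.8% over the 9 promoters against 10.2% at E14.5. Over all promoters it was 17.5% and 12.3%. Summed over the 9 promoters, the libraries had 299, 272 and 304 CPM at E14.5 and 256, 223 and 327 CPM at P0, so the P0 libraries lay on both sides of the E14.5 range.

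The non-promoter regions with the most difference between the stages were at Deptor. A region within the gene and outside its exons, 118.82 kb from its start (chr15:55230528-55231755), had 4.63, 6.66 and 5.96 CPM at E14.5 and 10.8, 10.4 and 9.55 CPM at P0. All P0 libraries were above all E14.5 libraries. The log2 fold change was 0.83 (SE 0.27, interval 0.26 to 1.40), and the adjusted p from edgeR was 0.0928, above the threshold of 0.05. At an adjusted p of 0.1 it would pass, which is 1 of the 5 regions outside promoters, against 10.9% of all such regions. The adjusted p ran from 0.0713 to 0.333 over the alternatives that kept the region, with the log2 fold change between 0.70 and 0.94. E2f1, E2f3, E2f6 and Sall1 matches were listed in this region.

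The first region past the end of Deptor went the other way. At 6.38 kb from the gene end (chr15:55264864-55266441) it had 23.25, 16.90 and 16.47 CPM at E14.5 and 13.43, 14.23 and 13.18 CPM at P0, and all P0 libraries were below all E14.5 libraries. The log2 fold change was -0.47 (SE 0.21, interval -0.92 to -0.02, adjusted p = 0.244), and -0.30 (adjusted p = 0.629) without E14.5 replicate 1, the highest library. A second downstream region, 9.24 kb from the gene end (chr15:55267758-55269272), had 13.5, 16.3 and 13.4 CPM at E14.5 and 16.0, 20.3 and 19.2 CPM at P0. The stages overlapped there through a single pair of libraries (log2 fold change 0.35, SE 0.20, adjusted p = 0.383). Both were among the more open regions outside promoters, at 10.3 and 10.9 CPM per kb and the 76.0 and 79.6 percentiles.

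**Figure D4:**
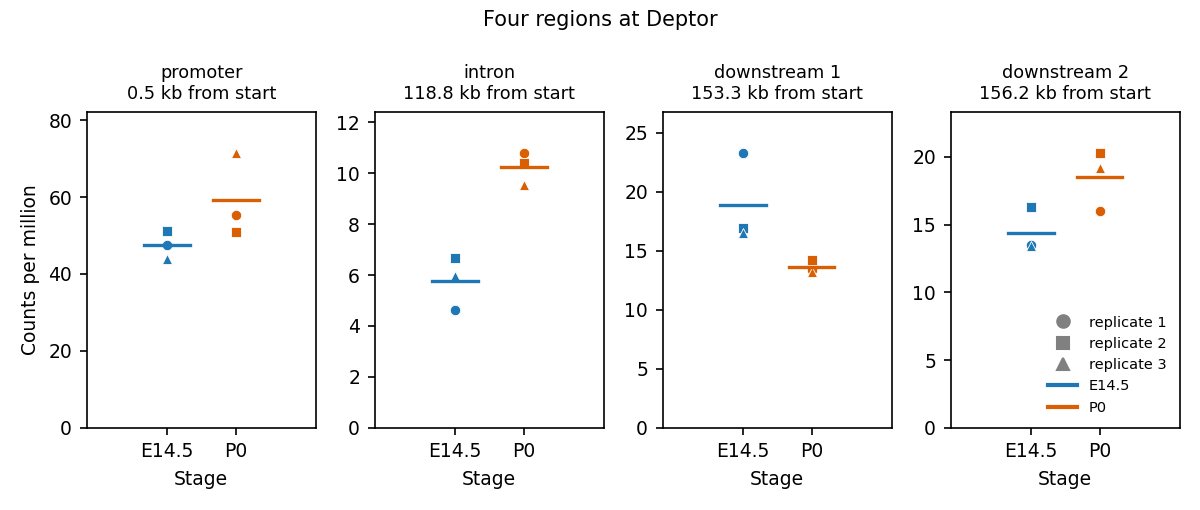
CPM (y axes, each from 0) in each library at the 4 regions of Deptor, with the distance of each from the gene start; lines are means of 3 libraries per stage and symbols are replicates. P0 lies above E14.5 in the intron and below it in the first downstream region, without overlap in both, while the promoter and the second downstream region overlap.

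The region over an internal exon of Rictor (chr15:6763052-6764766) had 7.47, 11.4 and 8.64 CPM at E14.5 and 8.54, 13.8 and 10.0 CPM at P0, with overlapping stages. The log2 fold change there was 0.22 (SE 0.27, interval -0.35 to 0.79, adjusted p = 0.728), and 0.01 without P0 replicate 2. Forkhead matches and 1 Smad1 match were listed there. The region within Rptor (chr11:119778572-119779692) was the least open of the 16, at 2.50 CPM per kb and the 0.374 percentile of regions outside promoters. It had 3.08, 3.59 and 1.52 CPM at E14.5 and 0.937, 6.36 and 1.34 CPM at P0, where replicate 2 stood far above the other P0 libraries. The log2 fold change was -0.04 (SE 0.60, interval -1.32 to 1.25, adjusted p = 0.985), and without P0 replicate 2 it was -1.25 (adjusted p = 0.236).

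In the authors' deposited table, all 16 regions were classed as stable. The smallest adjusted p-value among them in the authors' deposited table was 0.112, at the Deptor intron region, with a log2 fold change of 0.84. At the Rptor intron the authors' log2 fold change was -0.93, against -0.04 in the edgeR fit. No region past the threshold lay close to the genes. Such a region was nearest at Deptor, 302 kb from the gene and close to Enpp2 (chr15:54809351-54811777), with 26.1, 27.2 and 29.3 CPM at E14.5 and 12.6, 14.4 and 13.3 CPM at P0. This region fell (log2 fold change -1.04, SE 0.19, adjusted p = 0.00669), though the adjusted p was 0.0562 if E14.5 replicate 3 was left out and 0.0576 if P0 replicate 1 was. For Rictor the distance was 663 kb and for Rptor, the most distant, 7500 kb.

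The wider pathway was described with a list of 70 genes, of which 69 had a region (Sec13 had none), giving 117 promoters and 45 other regions. Some of these promoters were listed under a neighbour in the window and not under the pathway gene. The only regions found for Akt1, for example, were the promoters of Siva1 and Zbtb42. As among the members, none of the 117 promoters passed (0.851% of all promoters did), with 6 at an unadjusted p under 0.05 (8.73% of all promoters), and their median log2 fold change was -0.12, against -0.10 over all promoters. Of the other regions 5 of 45 passed, 4 higher and 1 lower at P0, against 6.59% of all other regions (2.46% higher and 4.13% lower), and their median was 0.16 against 0.10 over all of them. By list, 3 of 12 such regions passed among genes of PI3K and Akt input, 1 of 13 among those of amino acid and lysosome input, 1 of 8 among targets and effectors, 0 of 5 among those of energy and stress input and 0 of 7 among subunits and partners of the complexes.

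The regions that rose were at Irs1, Pik3ca, Slc38a9 and Eif4e. A region within Irs1 (chr1:82246702-82248627), which links the insulin receptor to PI3K, had 16.1 ± 6.04 CPM at E14.5 and 31.4 ± 5.65 CPM at P0 (SD over 3 libraries; edgeR log2 fold change 0.95, adjusted p = 0.0434). A region past Pik3ca (chr3:32470506-32471475), a catalytic subunit of PI3K, rose from 6.87 ± 1.43 to 13.7 ± 1.21 CPM (log2 fold change 0.98, adjusted p = 0.0336). It was intergenic by the annotation of the table but overlaps Kcnmb3 in RefSeq. A region within Slc38a9 (chr13:112719500-112721086), the lysosomal arginine sensor upstream of mTORC1, rose from 8.22 ± 1.91 to 15.6 ± 2.99 CPM (log2 fold change 0.91, adjusted p = 0.0491). An intergenic region past Eif4e (chr3:138559816-138561202), the cap-binding protein released when mTORC1 acts on its inhibitors, rose from 7.47 ± 1.42 to 14.1 ± 0.946 CPM (log2 fold change 0.91, adjusted p = 0.0419).

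These 4 rises stood near the threshold. Each failed in 7 to 9 of its 15 or 16 alternatives, among them the fits without E14.5 replicate 1, E14.5 replicate 3, P0 replicate 1 or P0 replicate 2, and the count of 5 fell to 0 without E14.5 replicate 3 and to 0 without P0 replicate 1. In the remaining lists the smallest p was that of a region within Prr5l, a partner of mTORC2 (log2 fold change 0.69, adjusted p = 0.101), and of one within Prkag2, a subunit of the energy sensor AMPK (log2 fold change 0.67, adjusted p = 0.153).

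**Figure D5:**
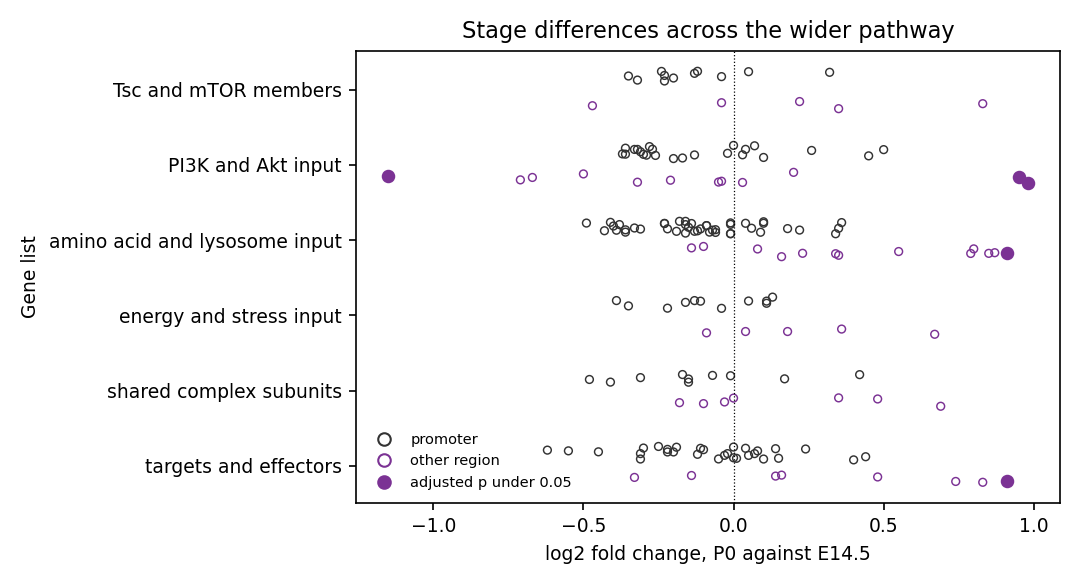
Log2 fold change of P0 against E14.5 (x axis) for every region of the 9 genes and of 5 lists of further pathway genes (y axis); promoters are dark, other regions purple, and filled points passed an adjusted p of 0.05. The filled points are 5 regions outside promoters, 4 to the right and 1 to the left, and none belongs to the 9 genes.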

How the data were processed

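ATAC-seq libraries of nephron progenitors were compared between E14.5 and P0 (3 litters each), grouped by source name, with columns matched to libraries by title. Per the file headers, the deposited table gives whole-number counts per region and library, and the authors' own log2 fold change, p-value and adjusted p-value for the stages, made with a model not given in the sources used here. The genome build mm10 is named in the submitters' processing notes. Aligner, peak caller, counting rule, Tn5 shift and treatment of duplicates are not given in the sources used here.

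Repeated rows (1966 of 45489) were dropped. Gene spans came from RefSeq (GRCm38.p6), in which all 139 preset genes were found, and promoter and exon classes from the table. The counts of all regions entered a single edgeR 4.0.16 fit (R 4.3.3; TMM; filterByExpr, which removed 0 regions; a design of stage alone; quasi-likelihood test; Benjamini-Hochberg). CPM used TMM-scaled library sizes. The standard error was the log2 fold change divided by the square root of F. The code was tested on simulated data. DESeq2 1.42.0 and limma 3.58.1 served as alternatives.

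The members and gene lists were chosen with earlier results of these data known. All member promoters, the member regions with the 6 smallest p-values, and pathway regions past the threshold or with the smallest p in their list were named; the Enpp2 region was chosen after its values were seen. The pathway region lower at P0 is counted and not reported here by name.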

Additional observations from a re-analysis of the deposited data

How the results depend on the processing

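No region fell to an adjusted p of 0.05 under another scaling or test, with a replicate block or with 1 library left out. The filter of at least 50 counts in every library left out the Deptor and Rptor introns, so they have no value there, and the other 14 regions stayed above 0.05. With a threshold of 0.1, 1 region passed (Deptor intron), which is 1 of the 5 outside promoters, against 10.9% of all such regions. No region passed with windows of the gene body only, of 50 kb (32 regions) or with any overlap in place of the midpoint. Of 254 values for single regions under an alternative, 14 changed sign, all at 3 regions that were near 0: the Rptor intron (0.02 with the DESeq2 test, 0.01 with total-count scaling, 0.14 with promoter-only TMM), the Rictor promoter (0.02 with total-count scaling, 0.06 with promoter-only TMM, 0.09 with that scaling and without P0 replicate 2) and the Akt1s1 end. Leaving out 1 library each gave -1.25 to 0.38, -0.23 to 0.08 and -0.05 to 0.16 at these 3. The cause was not tested.

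The number of regions past the threshold over the whole table (2059) was 885 with promoter-only TMM, 797 with that scaling and without P0 replicate 2 in addition, 855 with at least 50 counts in every library (fewer regions tested, 33903), 3490 with a threshold of 0.1, and 339 (without E14.5 replicate 3) to 2987 when 1 library was left out. The pathway count (5) was 1, 1, 1 and 8 in the same settings and 0 to 6 with 1 library left out. With the replicate block it was 3, and the block changed no call at the 16 regions. Same-numbered libraries had correlations of 0.067, -0.140 and 0.077 between their deviations from the stage means. Differently numbered libraries had -0.241 to 0.192. With 3 libraries per stage these values cannot decide whether the numbers pair the litters. Under promoter-only TMM, a setting chosen after seeing the data, the median over the whole table was 0.12. With 3 libraries per stage, the 95% intervals had a median width of 0.93 (log2) at the 11 promoters, and a difference within them was not detectable. A larger difference could also stay uncalled after adjustment. The interval at the Deptor intron was 0.26 to 1.40, and its edgeR adjusted p was 0.0928.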
